A study of Mus musculus with 9 samples.

Results

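Genes of the cell cycle and of the p53 response were followed in kidneys of mice given endotoxin, without and with thymosin β4. The members are 40 of the 34310 genes of the count table, taken by their symbols from a list of cell cycle and p53 genes, and each was found on 1 row. The list holds 9 G1 cyclins, cyclin-dependent kinases and E2f1, 10 genes of S phase, 14 of G2 and mitosis and 7 of arrest and the p53 pathway. The libraries came from kidney of 9 mouse samples in 3 groups of 3. The saline group received saline (the labels call it CTRL), the LPS group lipopolysaccharide, the endotoxin of Gram-negative bacteria, and the LPS+Tβ4 group lipopolysaccharide with thymosin β4, a small peptide that binds monomeric actin. Tβ4 was not given alone, so its effect can be read only on top of LPS. The labels give no dose, time, route, strain, sex or age, and they do not state that each library is a separate animal, so the p-values measure the spread between these libraries.

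A cell enters division when mitogens raise the D-type cyclins, which activate CDK4 and CDK6. Together with cyclin E and CDK2 these kinases release E2F transcription factors, which switch on the genes of DNA replication. The mitotic genes come on later in the cycle. The tumour suppressor p53, held low by its own target Mdm2, answers DNA damage and other stress by raising Cdkn1a (p21), which blocks the cyclin-CDK kinases. Most epithelial cells of the adult kidney are quiescent, and injured tubules can re-enter the cycle or arrest in it.

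The promoter text of the members is shown first because the classes differ in it. RefSeq windows of 300 bases (250 before to 50 after a start site, GRCm38.p6) were at hand for 32 of the 40 members, and not for Ccnd1, Ccnd2, Ccne2, Mcm4, Ccna2, Aurkb, Foxm1 and Cdkn1c. For each member, Cdkn1a included, the window with its start site nearest the 5′ end of the gene's row was taken. It need not be the main promoter, and other start sites that a member may have were not read. A p53 element, read as 2 adjoining half-sites over 20 bases with at most 1 mismatch, lay in 29 of 32851 windows (0.0883%), and 2 of those 29 belong to members, Cdkn1a and Ccng1. None of the 19 genes of a wider p53 target list that had a window held one there. An E2F-type octamer (TTTCCCGC, TTTCGCGC, TTTGCCGC or TTTGGCGC) lay in 2.26% of all windows and in 4 of 9 S phase windows (Mcm3, Mcm5, Mcm6 and Mcm7), as well as in those of Cdk2 and Cdk1. The CHR hexamer of late cell cycle promoters (TTTGAA or TTTAAA) lay in 27.6% of all windows and in 10 of 11 windows of the G2 and mitosis class, and a CCAAT box in 37.4% of all windows, 10 of 11 mitotic and 8 of 9 S phase windows. Both strands were searched, each motif on its own, and E2F-type octamers can overlap each other, as a pair does in Mcm6. These are matches of letters and not bound sites. The upstream stretches of 6 members are printed from 5′ to 3′ on the gene's strand, without transcribed bases, with the matches to these motifs in capitals. For Cdkn1a and Ccng1 these include the p53 element, for Mcm6 the E2F-type octamers, and for Cdk1, Mki67 and Top2a the CHR hexamers and CCAAT boxes (ATTGG on the other strand).
Cdkn1a (chr17:29090729-29090975, plus strand): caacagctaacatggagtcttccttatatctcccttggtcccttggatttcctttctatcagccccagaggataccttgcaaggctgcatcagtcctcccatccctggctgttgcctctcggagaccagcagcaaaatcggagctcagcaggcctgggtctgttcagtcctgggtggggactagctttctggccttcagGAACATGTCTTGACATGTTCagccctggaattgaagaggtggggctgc
Ccng1 (chr11:40755312-40755536, minus strand): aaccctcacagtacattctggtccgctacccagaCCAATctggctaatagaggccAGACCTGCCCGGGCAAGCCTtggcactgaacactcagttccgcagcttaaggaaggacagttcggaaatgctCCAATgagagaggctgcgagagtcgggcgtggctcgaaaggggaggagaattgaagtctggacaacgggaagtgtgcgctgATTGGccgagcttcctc
Mcm6 (chr1:128359706-128359955, minus strand): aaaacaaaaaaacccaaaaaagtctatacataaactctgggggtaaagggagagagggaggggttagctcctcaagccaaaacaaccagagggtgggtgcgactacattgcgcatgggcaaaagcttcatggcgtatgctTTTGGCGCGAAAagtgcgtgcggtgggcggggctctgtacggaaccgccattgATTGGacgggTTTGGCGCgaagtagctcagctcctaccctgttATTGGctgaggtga
Cdk1 (chr10:69352939-69353162, minus strand): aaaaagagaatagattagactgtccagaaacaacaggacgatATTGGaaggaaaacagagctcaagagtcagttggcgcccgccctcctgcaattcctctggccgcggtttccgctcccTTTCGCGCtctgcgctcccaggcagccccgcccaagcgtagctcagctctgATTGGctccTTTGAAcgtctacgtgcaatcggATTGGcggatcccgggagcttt
Mki67 (chr7:135716380-135716629, minus strand): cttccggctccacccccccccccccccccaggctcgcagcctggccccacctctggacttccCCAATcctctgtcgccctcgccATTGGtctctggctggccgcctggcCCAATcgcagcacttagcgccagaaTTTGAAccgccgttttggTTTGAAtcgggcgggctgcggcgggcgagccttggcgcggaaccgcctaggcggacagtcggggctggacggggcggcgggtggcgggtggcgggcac
Top2a (chr11:99024190-99024439, minus strand): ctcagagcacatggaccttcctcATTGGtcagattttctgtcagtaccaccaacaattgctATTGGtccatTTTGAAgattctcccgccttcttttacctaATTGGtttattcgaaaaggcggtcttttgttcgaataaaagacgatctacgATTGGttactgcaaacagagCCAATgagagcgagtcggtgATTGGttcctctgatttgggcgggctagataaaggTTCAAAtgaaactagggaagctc

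The libraries held 53 to 62 M counts. Levels are in CPM, counts per M of a TMM-scaled library, and are given for replicates 1, 2 and 3 of a group in that order. A change is on the log2 scale, with its SE, and comes from edgeR's quasi-likelihood test with Benjamini-Hochberg adjustment over 15015 genes. A gene is said to have risen or fallen where the adjusted p was under 0.05. Markers of kidney epithelium and podocytes (10 of 10 detected) showed the tissue, with a summed level of 11560 to 12560 CPM in saline, 1987 to 4220 in LPS and 2321 to 4789 in LPS+Tβ4. Saline replicate 1 stood apart from the other saline libraries in the members: it held the highest saline level of all 14 G2 and mitosis genes, 1.74 to 4.57 times that of saline replicate 3. The summed level of 6 urothelium markers was 2.13 CPM in that library against 93.7 and 88.8 CPM in the other saline libraries, and the LPS and LPS+Tβ4 groups were split in the same way (3.48 CPM in LPS replicate 3, and 1.44 and 1.29 CPM in LPS+Tβ4 replicates 1 and 2, against 55.0 to 107 CPM in the rest). LPS replicate 1 held the lowest level of 9 of the 14 G2 and mitosis genes. For many of the results below, the outcome without saline replicate 1 or LPS replicate 1 is given as well.

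Of the 40 members, 34 had a mean of at least 0.5 FPKM (fragments per kilobase and M) over the 9 libraries and were tested. The 6 that did not (Cdk1, Ccnb1, Bub1, Aurkb, Cenpe and Foxm1) are all of G2 and mitosis, with Cdk1 just outside at 0.494 FPKM and Bub1b and Top2a just inside at 0.509 FPKM each. In LPS against saline 3 members rose (Ccne1, Cdk2 and Cdkn1a) and 9 fell (Ccnd1, E2f1, Rrm2, Tyms, Mki67, Top2a, Cdkn1c, Cdkn2c and Ccng1), or 8.82% and 26.5% of 34, where 20.9% and 22.2% of all genes tested were called higher and lower. Between LPS+Tβ4 and saline 2 rose (Cdkn1a and Trp53) and 6 fell (Ccnd1, Ccne2, Rrm2, Mki67, Plk1 and Cdkn1b), or 5.88% and 17.6% of 34, beside 12.3% and 11.8% of all genes. In LPS+Tβ4 against LPS no member passed in edgeR, beside 4.5% of all genes called higher and 2.33% lower; 2 were higher and 5 lower at an unadjusted p under 0.05, beside 13.5% and 11.5% of all genes at that limit, and DESeq2 called 1 and 2. These shares lie near the background or under it for most calls, so the counts by themselves set the members apart little from other genes. The median change over the tested members was -0.29, -0.18 and -0.51 in LPS against saline, LPS+Tβ4 against LPS and LPS+Tβ4 against saline, and 0.02, -0.01 and 0.00 over all genes tested.

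**Figure D1:**
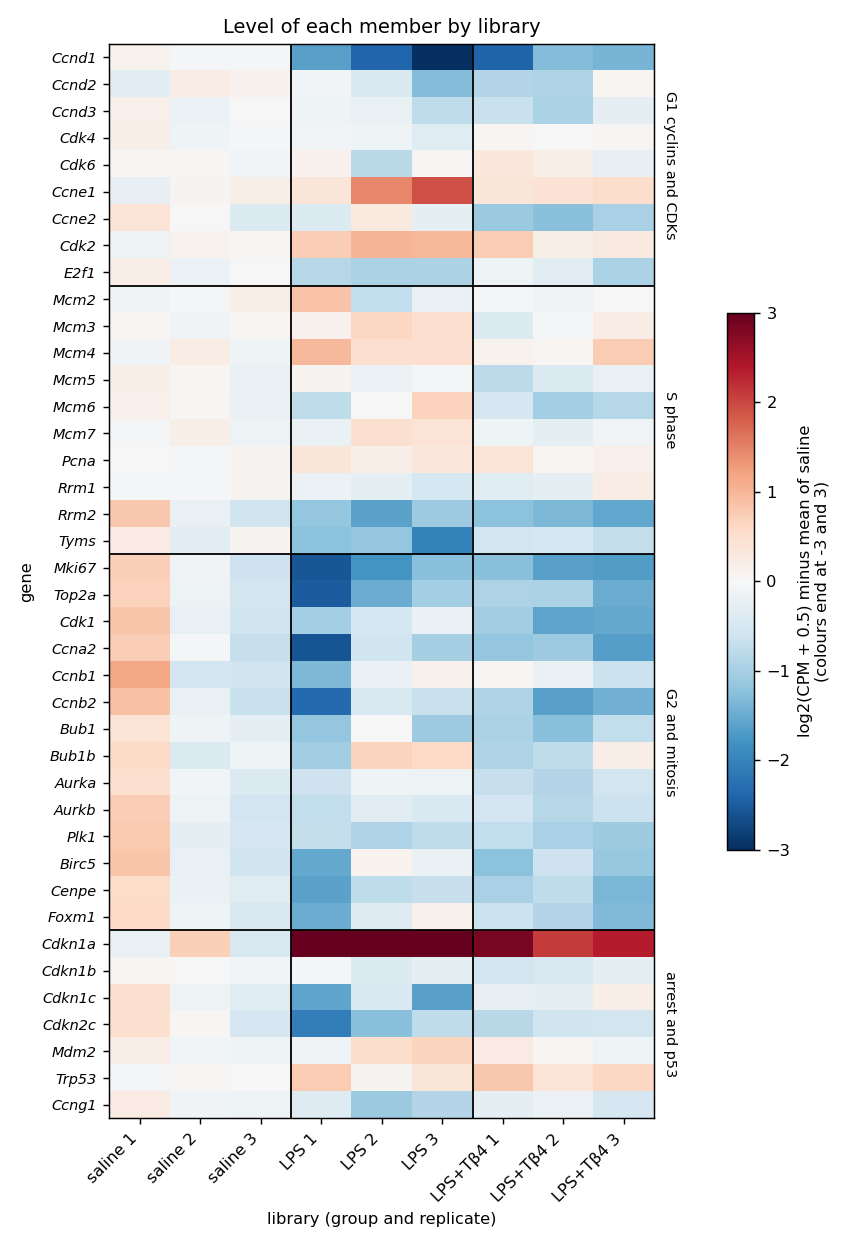
Level of each of the 40 members (rows, by class) in each of the 9 libraries (columns), as log2(CPM + 0.5) minus the mean of that value in the 3 saline libraries; red is higher and blue lower, and colours end at -3 and 3. Cdkn1a is red in the 6 libraries from mice given LPS and Ccnd1 blue in them, while the G2 and mitosis rows are highest in saline replicate 1 for 13 of 14 genes.

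Single libraries weighed on these counts. Without saline replicate 1 the members called in LPS against saline were 3 higher and 4 lower (Ccnd1, Mki67, Rrm2 and Tyms). Without LPS replicate 2 they were 4 higher and 4 lower, and without LPS replicate 1 they were 5 higher and 8 lower. The count over all genes went from 6473 to 5019, 5495 and 6903 in these settings. Leaving out saline replicate 1 in LPS+Tβ4 against saline left 1 call (Cdkn1a), and leaving out LPS+Tβ4 replicate 1 also left 1 higher and 0 lower. In that comparison the calls were 1 higher and 1 lower without saline replicate 2, and 1 higher without saline replicate 3 or LPS replicate 3. They were 2 higher and 9 lower without LPS replicate 1, 0 lower without LPS+Tβ4 replicate 2, and 1 higher and 2 lower without LPS+Tβ4 replicate 3. Over all genes the calls in LPS+Tβ4 against saline went from 3617 to 2269 without saline replicate 1 and to 2119 without LPS+Tβ4 replicate 1. They were 2386 without saline replicate 2, 2183 without saline replicate 3, 4544 without LPS replicate 1 and 4062 without LPS replicate 3. Without LPS+Tβ4 replicate 2 they were 2784, and without LPS+Tβ4 replicate 3 they were 2607. Without LPS replicate 1, LPS+Tβ4 against LPS gave 1 member higher (Ccng1) and 6 lower (Ccne1, Ccne2, Cdkn1a, Mcm6, Mcm7 and Mdm2), while the count over all genes went from 1025 to 2672. With total count scaling the median of all genes moved to 0.17, 0.05 and 0.20 in the 3 comparisons, and the share of calls that were higher went from 48.6% to 58.6% in LPS against saline, from 65.8% to 80.0% in LPS+Tβ4 against LPS and from 51.2% to 68.9% in LPS+Tβ4 against saline.

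Of the D-type cyclins and their kinases, 1 was called. Ccnd1, cyclin D1, the mitogen-induced partner of CDK4 and CDK6, fell in both LPS groups. It stood at 185, 166 and 163 CPM in saline, 54.7, 32.3 and 15.5 in LPS and 31.7, 69.1 and 64.7 in LPS+Tβ4. Every library from mice given LPS lay below every saline library, and the LPS and LPS+Tβ4 ranges overlapped. The change was -2.33 ± 0.45 (adjusted p = 0.004), a level 5.01-fold lower in LPS, and -1.63 ± 0.44 (adjusted p = 0.029) in LPS+Tβ4 against saline; LPS+Tβ4 against LPS gave 0.69 ± 0.43 (adjusted p = 0.36). The fall in LPS passed under all 19 alternatives. The fall in LPS+Tβ4 did not pass without any 1 of the 6 saline and LPS+Tβ4 libraries (adjusted p from 0.050 to 0.089 on leaving out saline replicate 1, 2 or 3 or LPS+Tβ4 replicate 1, 2 or 3). Ccnd1 (ENSMUSG00000070348, chromosome 7 at 144929931 to 144939925, minus strand) shares 818 bases with LTO1 on the other strand.

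The other D-type cyclins and the kinases did not pass in any comparison. Ccnd2, cyclin D2, stood at 13.1, 19.6 and 18.4 CPM in saline, 15.8, 12.1 and 6.53 in LPS and 8.87, 8.74 and 17.4 in LPS+Tβ4. Ccnd3, cyclin D3, stood at 73.5, 57.7 and 66.7 CPM in saline, 60.2, 56.6 and 38.5 in LPS and 41.2, 33.6 and 54.5 in LPS+Tβ4. Its LPS+Tβ4 range lay below the saline range (change -0.62 ± 0.22, adjusted p = 0.082). Cdk4 stood at 71.0 ± 8.10 CPM (mean ± SD, n = 3) in saline, 61.9 ± 6.01 in LPS and 72.3 ± 1.14 in LPS+Tβ4, and Cdk6 at 25.2 ± 1.21 CPM in saline, 22.5 ± 7.20 in LPS and 27.1 ± 5.27 in LPS+Tβ4. For Cdk4 the change in LPS was -0.20 ± 0.12 (adjusted p = 0.22). Cdk4 shares 641 bases with Tspan31 on the other strand.

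Transcripts of cyclin E1 and of its kinase CDK2, which act at the step from G1 into S phase, were higher in LPS. Ccne1, cyclin E1, stood at 0.690, 0.990 and 1.09 CPM in saline, 1.32, 3.36 and 4.90 in LPS and 1.31, 1.42 and 1.53 in LPS+Tβ4. LPS replicate 1 lay within the LPS+Tβ4 range, LPS replicates 2 and 3 lay above every other library, and all 6 libraries from mice given LPS lay above saline. Ccne1 rose in LPS (1.79 ± 0.46, adjusted p = 0.014) under each of the 18 alternatives that could test it, and LPS+Tβ4 against LPS gave -1.17 ± 0.45 (adjusted p = 0.15). Without LPS replicate 1 that last comparison passed (-1.55, adjusted p = 0.016; adjusted p from 0.016 to 0.36 over its alternatives). Cdk2 stood at 14.8, 17.9 and 17.2 CPM in saline, 27.9, 34.3 and 33.6 in LPS and 28.5, 18.9 and 20.2 in LPS+Tβ4. It rose 1.92-fold in LPS (0.94 ± 0.19, adjusted p = 0.0044) under all 19 alternatives, and LPS+Tβ4 against LPS gave -0.50 ± 0.19 (adjusted p = 0.14).

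Ccne2, cyclin E2, took another course from Ccne1. Its levels were 5.35, 3.94 and 2.81 CPM in saline, 2.80, 4.93 and 3.13 in LPS and 1.53, 1.35 and 1.74 in LPS+Tβ4. The LPS+Tβ4 libraries lay below all others, while saline and LPS overlapped. It fell in LPS+Tβ4 against saline (-1.38 ± 0.33, adjusted p = 0.019), and LPS against saline gave -0.16 ± 0.33 (adjusted p = 0.72). Against LPS the change was -1.23 ± 0.33 (adjusted p = 0.064) in edgeR and -1.24 (adjusted p = 0.0076) in DESeq2, with adjusted p from 0.0076 to 0.23 over the alternatives. The fall against saline did not pass without saline replicate 1 or 2 or LPS+Tβ4 replicate 1 or 2 (adjusted p from 0.050 to 0.077). Ccne2 shares 5622 bases with Ints8 on the other strand, which carried a mean of 1398 counts against 173 for Ccne2.

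E2f1, the transcription factor that switches on replication genes, fell in LPS. It stood at 4.54, 3.40 and 3.90 CPM in saline, 1.94, 1.80 and 1.79 in LPS and 3.49, 2.98 and 1.80 in LPS+Tβ4, so that the LPS libraries lay close together below saline and the LPS+Tβ4 libraries reached into both ranges. The change was -1.10 ± 0.29 (adjusted p = 0.016) in LPS, and 0.58 ± 0.29 (adjusted p = 0.26) in LPS+Tβ4 against LPS. The fall did not pass without saline replicate 1 (-0.94, adjusted p = 0.061) or without LPS replicate 2 (-1.03, adjusted p = 0.051).

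**Figure D2:**
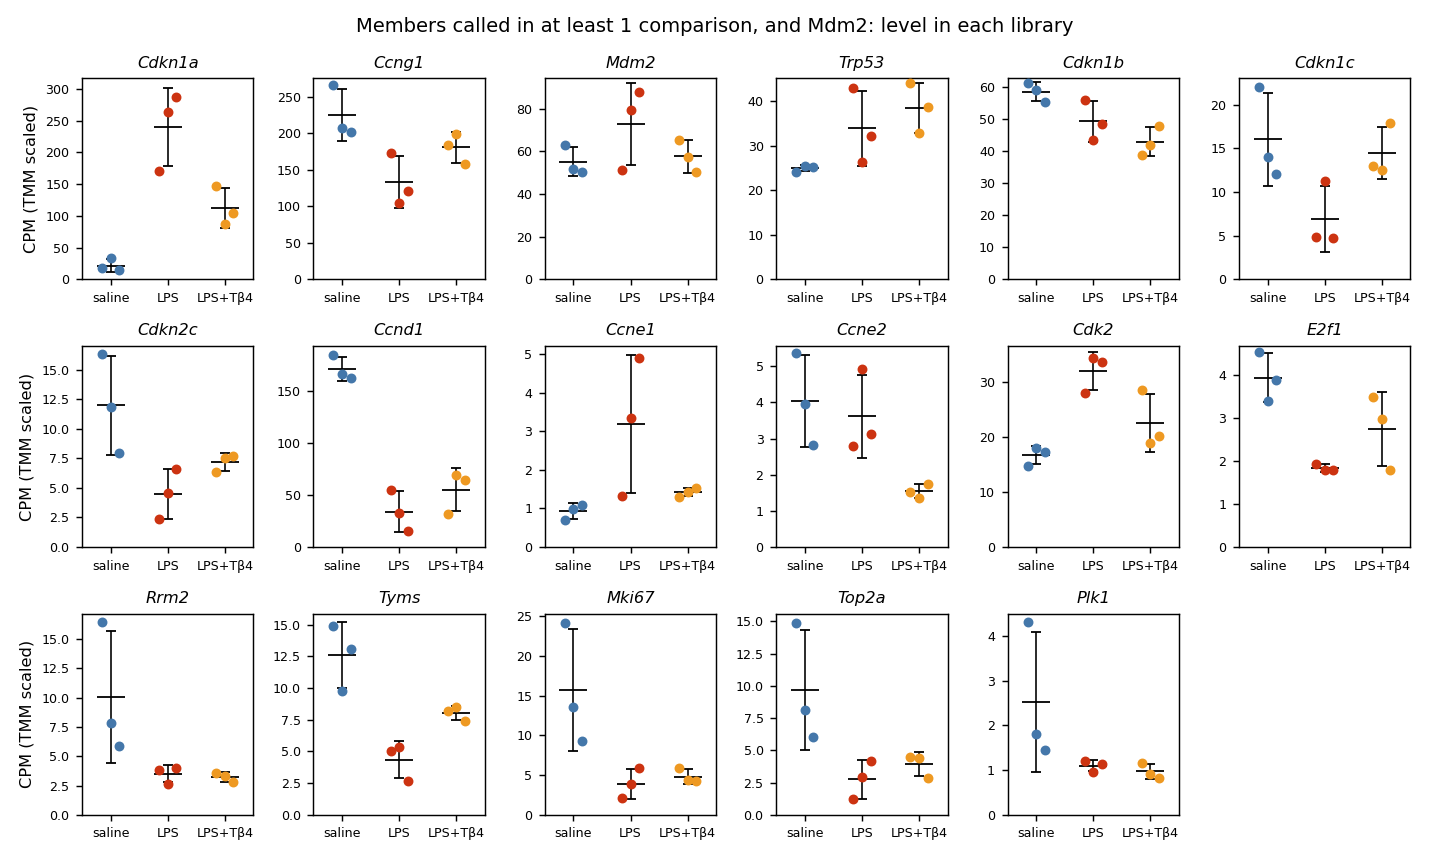
CPM after TMM scaling (vertical axes, from 0) of the 16 members called in at least 1 comparison and of Mdm2, in each library (points) with the group mean and SD (bars, n = 3). Cdkn1a lies between 171 and 288 CPM in LPS and between 86.3 and 148 CPM in LPS+Tβ4, and Ccne2 between 1.35 and 1.74 CPM in LPS+Tβ4, under every other library.

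Of the 10 S phase members 2 fell in LPS against saline, where 22.2% of all genes tested were lower. The 6 subunits of the MCM helicase, which unwinds DNA at origins, did not pass in any comparison, and neither did Pcna, the sliding clamp of the replicative polymerases, or Rrm1, the large subunit of ribonucleotide reductase. Rrm2, the small subunit of that enzyme, fell, and so did Tyms, thymidylate synthase, in LPS. Rrm2 and Tyms supply deoxynucleotides for replication. Rrm2 stood at 16.4, 7.82 and 5.88 CPM in saline, 3.81, 2.67 and 4.03 in LPS and 3.59, 3.31 and 2.76 in LPS+Tβ4. All 6 libraries from mice given LPS lay below saline, and the 2 LPS groups overlapped. It fell 2.87-fold in LPS (-1.52 ± 0.39, adjusted p = 0.014) and 3.12-fold in LPS+Tβ4 (-1.64 ± 0.39, adjusted p = 0.018). Saline replicate 1 was the highest library by far, and without it the changes were -0.92 ± 0.29 (adjusted p = 0.047) in LPS and -1.04 ± 0.29 (adjusted p = 0.054) in LPS+Tβ4. The first did not pass without LPS replicate 2 (-1.31, adjusted p = 0.057), and the second without any 1 of LPS+Tβ4 replicates 1, 2 and 3 (adjusted p from 0.052 to 0.066).

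Tyms stood at 14.9, 9.74 and 13.1 CPM in saline, 5.04, 5.31 and 2.66 in LPS and 8.21, 8.48 and 7.37 in LPS+Tβ4. The 3 groups did not overlap, with LPS+Tβ4 between the other 2. Tyms fell in LPS (-1.54 ± 0.30, adjusted p = 0.0039) under every alternative that could test it. Against LPS, the LPS+Tβ4 change was 0.89 ± 0.29 (adjusted p = 0.1) in edgeR and 0.88 (adjusted p = 0.029) in DESeq2 (adjusted p from 0.029 to 0.29 over the alternatives), and against saline -0.65 ± 0.29 (adjusted p = 0.14). Tyms-ps, a processed copy, carried a mean of 1.33 counts against 478 for Tyms.

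Among the helicase subunits, Mcm4 stood at 7.99, 10.2 and 7.86 CPM in saline, 17.5, 12.5 and 12.4 in LPS and 9.34, 8.94 and 15.0 in LPS+Tβ4, with the LPS range above the saline range (0.71 ± 0.26, adjusted p = 0.055). It passed under 6 of 19 alternatives (adjusted p from 0.021 to 0.14 over them). Mcm6 stood at 27.9, 26.0 and 21.9 CPM in saline, 14.6, 24.8 and 40.8 in LPS and 17.5, 12.2 and 13.6 in LPS+Tβ4. The LPS libraries ranged from below to above all saline libraries, and the LPS+Tβ4 libraries lay below saline. Its change against LPS was -0.89 ± 0.34 (adjusted p = 0.14), and -1.20 (adjusted p = 0.019) without LPS replicate 1 (adjusted p from 0.019 to 0.39 over the alternatives). Mcm2, Mcm3, Mcm5 and Mcm7 changed by 0.13, 0.47, -0.06 and 0.26 in LPS against saline, none of which passed. Mcm7 overlaps Ap4m1 and Cops6 on the other strand. Pcna stood at 39.2, 38.2 and 41.9 CPM in saline, 51.0, 45.8 and 50.2 in LPS and 52.0, 41.1 and 44.4 in LPS+Tβ4. The LPS range lay above saline and the change was 0.30 ± 0.12 (adjusted p = 0.076), with adjusted p from 0.033 to 0.19 over the alternatives. Rrm1 stood at 16.7 ± 0.925 CPM (mean ± SD, n = 3) in saline, 13.3 ± 1.74 in LPS and 15.3 ± 3.68 in LPS+Tβ4.

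Transcripts of G2 and mitosis were scarce in all groups, and the calls were falls. Mki67, which encodes the proliferation antigen Ki-67, stood at 24.2, 13.6 and 9.32 CPM in saline, 2.06, 3.88 and 5.83 in LPS and 5.85, 4.36 and 4.22 in LPS+Tβ4. Every library from mice given LPS lay below every saline library. Mki67 fell 4.00-fold in LPS (-2.00 ± 0.46, adjusted p = 0.0082) and 3.27-fold in LPS+Tβ4 (-1.71 ± 0.45, adjusted p = 0.027), and the 2 LPS groups overlapped (0.29 ± 0.44, adjusted p = 0.73). The fall in LPS passed under each of the 18 alternatives that could test it, leaving out LPS replicate 1 among them. Without saline replicate 1 it was -1.50 ± 0.43 (adjusted p = 0.033). The fall in LPS+Tβ4 was then -1.20 ± 0.43 (adjusted p = 0.11), and it did not pass without saline replicate 2 or LPS+Tβ4 replicate 1, 2 or 3 either (adjusted p from 0.054 to 0.085).

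Top2a, topoisomerase IIα, which untangles sister chromatids, stood at 14.9, 8.11 and 6.01 CPM in saline, 1.20, 2.90 and 4.21 in LPS and 4.48, 4.44 and 2.89 in LPS+Tβ4, again with both LPS groups below saline. It fell in LPS (-1.80 ± 0.51, adjusted p = 0.02), and LPS+Tβ4 against saline gave -1.30 ± 0.50 (adjusted p = 0.095). The change in LPS+Tβ4 passed under 4 of 18 alternatives (adjusted p from 0.014 to 0.33 over them). The fall in LPS did not pass without saline replicate 1 (-1.30 ± 0.50, adjusted p = 0.08) or without LPS replicate 2 (-1.79, adjusted p = 0.059). It did not pass with the replicate block either (-1.76, adjusted p = 0.066), and it passed without LPS replicate 1. Plk1, the polo-like kinase of mitotic entry, stood at 4.32, 1.81 and 1.46 CPM in saline, 1.20, 0.959 and 1.15 in LPS and 1.16, 0.919 and 0.835 in LPS+Tβ4. Its change was -1.20 ± 0.43 (adjusted p = 0.05) in LPS and -1.38 ± 0.43 (adjusted p = 0.048) in LPS+Tβ4, of which the second passed. The first passed under 3 of 18 alternatives (adjusted p from 0.036 to 0.23 over them). The fall in LPS+Tβ4 also passed under 3 of 18. Of the libraries left out in turn, saline replicate 3 was the 1 whose removal kept that fall. Without saline replicate 1 it was -0.70 ± 0.31 (adjusted p = 0.18).

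The other 5 tested members of the class did not pass. Ccna2, cyclin A2 of S phase and G2, stood at 12.3, 7.07 and 4.27 CPM in saline, 0.784, 4.60 and 3.37 in LPS and 2.97, 3.13 and 1.96 in LPS+Tβ4. Its change was -1.44 ± 0.62 (adjusted p = 0.094) in LPS and -1.55 ± 0.62 (adjusted p = 0.11) in LPS+Tβ4, where the range lay below saline. The first passed under 1 of 18 alternatives (adjusted p from 0.048 to 0.31 over them). The second passed under 3 of 18 (adjusted p from 0.027 to 0.33). Ccna2 shares 863 bases with Exosc9 on the other strand, which carried a mean of 1370 counts against 249 for Ccna2. Ccnb2, cyclin B2, stood at 5.60, 2.36 and 1.59 CPM in saline, 0.154, 1.92 and 1.59 in LPS and 1.28, 0.565 and 0.720 in LPS+Tβ4. Its processed copy Ccnb2-ps carried a mean of 89.7 counts beside 95.4 for Ccnb2, so reads may have been split between the pair. Aurka, the kinase that builds the spindle poles, stood at 4.28, 2.74 and 2.05 CPM in saline, 1.72, 2.61 and 2.59 in LPS and 1.60, 1.35 and 1.81 in LPS+Tβ4, with a change of -0.93 ± 0.34 (adjusted p = 0.083) in LPS+Tβ4 against saline. Birc5, survivin of the chromosomal passenger complex, stood at 6.49, 2.83 and 2.07 CPM in saline, 0.845, 3.72 and 2.93 in LPS and 1.16, 2.05 and 1.27 in LPS+Tβ4. Bub1b, the checkpoint kinase BubR1, stood at 4.00, 1.74 and 2.29 CPM in saline, 0.984, 4.33 and 4.06 in LPS and 1.13, 1.29 and 2.99 in LPS+Tβ4, with LPS replicates 2 and 3 above every saline library and LPS replicate 1 below them.

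The 6 members under the filter were read in a fit without it, over 34310 genes. Cdk1, the kinase that drives mitosis, stood at 7.83, 3.51 and 2.61 CPM in saline, 1.83, 2.78 and 3.59 in LPS and 1.78, 1.06 and 1.11 in LPS+Tβ4. The LPS+Tβ4 libraries were the lowest, and in that fit the change against saline was -1.78 ± 0.48 (adjusted p = 0.049). Saline replicate 1 held the highest level, and the fit without a filter was not repeated without that library. Ccnb1 (cyclin B1), Bub1, Aurkb, Cenpe (the kinetochore motor CENP-E) and Foxm1, a transcription factor of mitotic genes, did not pass in that fit. Their changes in LPS+Tβ4 against saline lay between -1.64 and -0.60. For the class as a whole, the median over the 14 members of log2(CPM + 0.5) minus the saline mean was 0.72, -0.18 and -0.56 in saline replicates 1, 2 and 3. It was -1.41, -0.42 and -0.57 in the LPS libraries and -0.92, -0.91 and -1.24 in the LPS+Tβ4 libraries. On these 14 members LPS replicate 2 lay within the span of the saline libraries and LPS replicate 3 at its lower edge. LPS replicate 1 and the LPS+Tβ4 libraries lay below it. Over the 8 tested members, the set planned for this level, the saline values were 0.721, -0.178 and -0.577. There the LPS values were -1.941, -0.528 and -0.715, with replicate 3 also below saline, and the LPS+Tβ4 values -0.918, -0.962 and -1.295. Over all genes tested, the median stayed between -0.06 and 0.01 in every library. Markers of T and NK cells, which can divide, summed to 5.66 to 8.76 CPM in saline, 3.72 to 4.24 in LPS and 3.77 to 5.17 in LPS+Tβ4, with 8 of 10 at 0 in some library (Cd3d, Cd3e, Cd3g, Cd4, Cd8a, Il7r, Nkg7 and Klrb1c), and those of B cells to 7.65 to 7.89, 2.95 to 7.65 and 2.52 to 6.22 CPM. Neutrophil markers summed to 2.26 to 3.77 CPM in saline, 52.9 to 83.9 in LPS and 30.7 to 101 in LPS+Tβ4. Some other sums overlapped saline in LPS and lay apart from it in LPS+Tβ4. Erythroid cells, whose precursors divide, gave 547 to 692.7 CPM in saline, 536 to 706.7 in LPS and 182 to 263 in LPS+Tβ4. Monocytes and macrophages gave 70.5 to 128, 93.9 to 97.1 and 136 to 184 CPM. Fibroblasts and pericytes gave 262 to 361, 147 to 273 and 150 to 228 CPM. The sum of 8 neural markers was 47.6 to 48.2 CPM in saline, 27.1 to 169.5 in LPS and 415.9 to 509 in LPS+Tβ4. All of the 10 neutrophil, 10 macrophage, 6 erythroid, 6 fibroblast and pericyte and 8 neural markers were detected in some library. Of the neutrophil markers 5 (Ly6g, Cxcr2, Mmp8, Ngp and Camp) were at 0 in some. The part of these cells in the mitotic transcripts was not tested. In whole tissue, fewer cells of a type and less RNA per cell cannot be told apart.

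**Figure D3:**
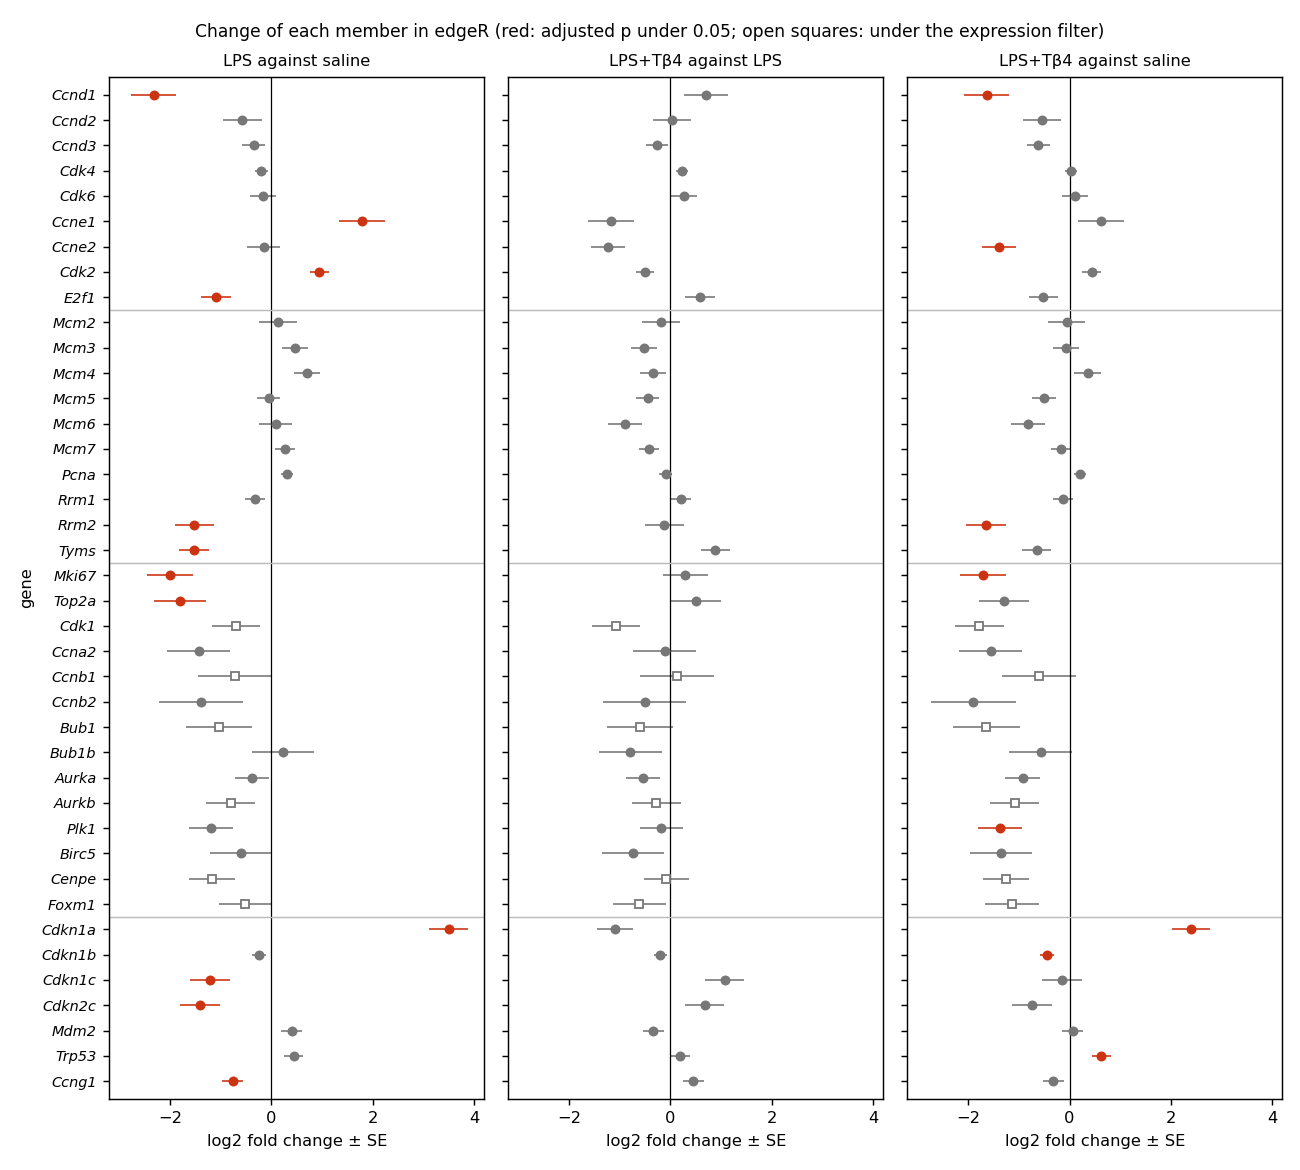
Log2 fold change ± SE from edgeR (horizontal axes) of each member (rows, by class) in the 3 comparisons; red points have an adjusted p under 0.05, and open squares, not coloured by p, are the 6 members under the expression filter, from the fit without it. Cdkn1a has the largest rise (3.49 in LPS) and Ccnd1 the largest fall in LPS (-2.33) among the tested members, and no point is red in LPS+Tβ4 against LPS.

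Cdkn1a, the p53 target p21 that blocks cyclin-CDK kinases, had the largest change of any member. It stood at 16.9, 33.0 and 14.1 CPM in saline, 171, 264 and 288 in LPS and 148, 86.3 and 105 in LPS+Tβ4. The 3 groups did not overlap, and LPS+Tβ4 lay between the other 2. Cdkn1a rose 11.3-fold in LPS (3.49 ± 0.39, adjusted p = 0.00032) and 5.29-fold in LPS+Tβ4 (2.40 ± 0.37, adjusted p = 0.003), both under all 19 alternatives. LPS+Tβ4 against LPS gave -1.09 ± 0.36 (adjusted p = 0.1) in edgeR, -1.10 (adjusted p = 0.025) in DESeq2 and -1.29 (adjusted p = 0.049) in edgeR without LPS replicate 1, with adjusted p from 0.025 to 0.32 over the alternatives. Its row (ENSMUSG00000023067, chromosome 17 at 29090976 to 29100727, plus strand) starts directly after the printed stretch that holds the p53 element.

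Ccng1, cyclin G1, another textbook p53 target and the other member with that element, did not rise. It stood at 267, 208 and 202 CPM in saline, 172, 104 and 121 in LPS and 184, 200 and 158 in LPS+Tβ4, with the LPS libraries below saline. Ccng1 fell in LPS (-0.77 ± 0.21, adjusted p = 0.018) while Cdkn1a rose in the same libraries, and LPS+Tβ4 against LPS gave 0.45 ± 0.21 (adjusted p = 0.23). The fall did not pass without saline replicate 1 (-0.58 ± 0.23, adjusted p = 0.086), LPS replicate 2 (-0.57, adjusted p = 0.069) or LPS replicate 3 (-0.71, adjusted p = 0.051). It was also lost with total count scaling (-0.59, adjusted p = 0.071), in limma on log2(FPKM + 1) (-0.62, adjusted p = 0.062) and without a filter (-0.70, adjusted p = 0.053). Without LPS replicate 1, Ccng1 passed as higher in LPS+Tβ4 than in LPS (0.67, adjusted p = 0.036; adjusted p from 0.036 to 0.52 over the alternatives).

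Mdm2, the ubiquitin ligase that degrades p53 and is itself a target, stood at 63.1, 51.9 and 50.5 CPM in saline, 51.2, 79.5 and 87.9 in LPS and 65.4, 57.3 and 50.2 in LPS+Tβ4. LPS replicates 2 and 3 lay above every other library and LPS replicate 1 within saline, and the change was 0.40 ± 0.21 (adjusted p = 0.15). Without LPS replicate 1 it passed (0.65, adjusted p = 0.011; adjusted p from 0.011 to 0.39 over the alternatives). Trp53, which encodes p53, stood at 24.2, 25.5 and 25.3 CPM in saline, 43.1, 26.4 and 32.2 in LPS and 44.1, 32.9 and 38.6 in LPS+Tβ4. All 6 libraries from mice given LPS lay above saline. Trp53 rose 1.54-fold in LPS+Tβ4 (0.62 ± 0.19, adjusted p = 0.045), and LPS against saline gave 0.44 ± 0.19 (adjusted p = 0.095). The rise did not pass without any 1 of saline replicates 1, 2 and 3, LPS replicate 3 and LPS+Tβ4 replicates 1 and 3 (adjusted p from 0.052 to 0.15), and LPS against saline passed without LPS replicate 2 (0.64, adjusted p = 0.028; adjusted p from 0.028 to 0.19 over the alternatives).

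The CDK inhibitors outside the p53 pathway went down or did not pass. Cdkn1c (p57) stood at 22.1, 13.9 and 12.0 CPM in saline, 4.81, 11.2 and 4.67 in LPS and 13.0, 12.5 and 17.9 in LPS+Tβ4. The LPS libraries lay below both other groups, which overlapped. Cdkn1c fell in LPS (-1.22 ± 0.39, adjusted p = 0.035) and LPS+Tβ4 against LPS gave 1.07 ± 0.39 (adjusted p = 0.13). The fall was lost under 9 of 19 alternatives, among them leaving out saline replicate 1 (-0.87 ± 0.40, adjusted p = 0.14), saline replicate 2, LPS replicate 1 or 3, or LPS+Tβ4 replicate 1 (adjusted p from 0.051 to 0.14). Cdkn2c (p18, an inhibitor of CDK4 and CDK6) stood at 16.3, 11.8 and 7.91 CPM in saline, 2.37, 4.57 and 6.58 in LPS and 6.30, 7.50 and 7.71 in LPS+Tβ4. Both LPS groups lay below saline. Cdkn2c fell in LPS (-1.41 ± 0.40, adjusted p = 0.02), not past the threshold without saline replicate 1 (-1.08 ± 0.42, adjusted p = 0.083) or LPS replicate 2 (-1.37, adjusted p = 0.062). Cdkn1b (p27, which holds cells in quiescence) stood at 61.3, 59.0 and 55.3 CPM in saline, 55.9, 43.4 and 48.6 in LPS and 39.0, 41.9 and 48.0 in LPS+Tβ4. Cdkn1b fell in LPS+Tβ4 against saline (-0.45 ± 0.13, adjusted p = 0.042), a 1.36-fold difference that was lost under 13 of 19 alternatives, the removal of any library other than LPS replicate 1 or 3 among them (adjusted p from 0.056 to 0.20).

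Levels of different members can be compared per length, in FPKM. In saline Ccng1 ranked first: it had 52.2 ± 5.76 FPKM (mean ± SD, n = 3), Ccnd1 29.7 ± 1.54, Cdk4 17.8 ± 0.995 and Pcna 13.5 ± 0.901 FPKM, and Cdkn1a 5.00 ± 2.75 FPKM. In LPS Cdkn1a had 60.6 ± 9.62 FPKM, above Ccng1 at 35.1 ± 13.6, Pcna at 18.7 ± 2.88 and Cdk4 at 17.5 ± 3.46 FPKM, and Ccnd1 had 6.90 ± 4.70 FPKM. In LPS+Tβ4 Cdkn1a had 29.8 ± 7.33 FPKM and Ccng1 48.4 ± 3.15 FPKM. The 14 mitotic genes lay from Ccnb2 at 1.66 ± 1.02 to Bub1 at 0.238 ± 0.0722 FPKM in saline, a span that also held Ccne1 (0.280 ± 0.0761), Ccne2 and E2f1. Pcna and Cdk4, neighbours in the LPS order, did not differ beyond their spread.

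The overlap of the groups' ranges needs no fitted model, though it rests on the TMM scaling of the CPM. Between LPS and saline they lay apart for 18 of 34 members, where 54.3% of all genes tested did. The counts were 6 of 34 in LPS+Tβ4 against LPS, beside 26.3%, and 21 of 34 in LPS+Tβ4 against saline, beside 50.9%. The 6 in LPS+Tβ4 against LPS were Cdk4, Tyms and Cdkn1c, higher, and Ccne2, Mcm5 and Cdkn1a, lower. In FPKM the LPS and LPS+Tβ4 ranges of Cdk4 and Mcm5 overlapped. At an unadjusted p under 0.05 in edgeR, 2 members were higher in that comparison (Tyms and Cdkn1c) and 5 lower (Ccne1, Ccne2, Cdk2, Mcm6 and Cdkn1a), beside the 13.5% and 11.5% of all genes. DESeq2 called 1 higher (Tyms) and 2 lower (Cdkn1a and Ccne2), beside 9.12% and 7.14% of all genes, and limma on log2(FPKM + 1) called 0 and 0.

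Wider lists of the same pathways, with no member in them, gave the setting. Of all genes tested, 20.9% were called higher and 22.2% lower in LPS against saline, and 12.3% and 11.8% in LPS+Tβ4 against saline. Of 29 tested genes of S phase, 8 rose (27.6%) and 6 fell (20.7%) in LPS against saline, near those shares, with a median change of 0.30. Prim1, a primase subunit, fell by 1.31 on the log2 scale in LPS. Chaf1b, a histone chaperone subunit of replication, rose from 1.56, 0.747 and 1.74 CPM in saline to 5.78, 10.2 and 13.9 in LPS (2.88 ± 0.43, adjusted p = 0.0012). Its LPS+Tβ4 libraries, at 2.91, 3.76 and 3.10 CPM, also lay above saline (1.27 ± 0.41, adjusted p = 0.054). Against saline, 0 of the 29 rose in LPS+Tβ4 and 3 fell, Rfc2 and Tk1 among them. Tk1 shares 10567 bases with Gm20708 on the other strand, which carried a mean of 676 counts against 438 for Tk1. Chaf1b rose with total count scaling and in DESeq2, and Chaf1b and Pold1 with the 6 libraries compared. Of the 29, none passed in LPS+Tβ4 against LPS in edgeR (0 higher and 9 lower at an unadjusted p under 0.05, where 13.5% and 11.5% of all genes were, and 0 and 6 in DESeq2). The 8 became 5 without LPS replicate 3, and calls against LPS were 6 lower without LPS replicate 1 and 1 lower without LPS+Tβ4 replicate 3. Against saline 1 fell without saline replicate 1 or 3 or LPS+Tβ4 replicate 1 or 3, and 1 rose without saline replicate 3 or LPS replicate 1 or 3.

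Of 20 tested genes of G2 and mitosis outside the members, 3 rose and 6 fell in LPS against saline (median -0.21). All genes gave 20.9% higher and 22.2% lower in that comparison. In LPS+Tβ4 against LPS 2 of the 20 rose and 2 fell, beside 4.5% and 2.33% of all genes. In LPS+Tβ4 against saline 0 rose and 2 fell, beside 12.3% and 11.8% of all genes. Spc25, a subunit of the NDC80 kinetochore complex, stood at 36.3, 16.6 and 20.1 CPM in saline, 7.41, 7.88 and 9.13 in LPS and 18.8, 23.4 and 18.3 in LPS+Tβ4. It fell in LPS (-1.58 ± 0.29, adjusted p = 0.003) and rose in LPS+Tβ4 against LPS (1.31 ± 0.29, adjusted p = 0.036). Incenp, the scaffold of the chromosomal passenger complex in which Aurkb and Birc5 work, stood at 5.29, 4.92 and 5.12 CPM in saline, 8.50, 12.6 and 14.3 in LPS and 6.56, 5.63 and 6.15 in LPS+Tβ4. It rose in LPS (1.21 ± 0.23, adjusted p = 0.0034) and fell in LPS+Tβ4 against LPS (-0.95 ± 0.23, adjusted p = 0.045). None of the 4 calls in LPS+Tβ4 against LPS (Spc24 and Spc25 higher, Kif23 and Incenp lower) passed without LPS replicate 2 or 3, LPS+Tβ4 replicate 1 or 2 or saline replicate 3. There 1 call was left without saline replicate 1 or 2 or LPS+Tβ4 replicate 3, and 4 were lower without LPS replicate 1. None passed without a filter, with the 6 libraries compared or with the replicate block. Without saline replicate 1 the 6 falls in LPS became 2 and the 2 falls in LPS+Tβ4 became 0, and without LPS replicate 1 the calls in LPS were 5 higher and 3 lower. The 2 falls in LPS+Tβ4 became 4 without LPS replicate 1, 1 without LPS+Tβ4 replicate 1 and 0 without LPS+Tβ4 replicate 2 or 3.

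Of 29 tested genes of G1 control and checkpoints, 11 rose (37.9%) and 6 fell (20.7%) in LPS against saline (median 0.43), beside 20.9% and 22.2% of all genes. In LPS+Tβ4 against saline 7 rose (24.1%) and 4 fell (13.8%), beside 12.3% and 11.8% of all genes. Myc, a transcription factor of growth and G1 entry, held 4.89, 5.12 and 2.57 CPM in saline, 44.9, 37.3 and 48.0 in LPS and 63.0, 31.5 and 32.6 in LPS+Tβ4, a rise of 3.37 ± 0.36 (adjusted p = 0.00028) and of 3.34 ± 0.36 (adjusted p = 0.00074), in the libraries where Ccnd1 fell. Rbl2, the pocket protein p130 of quiescent cells, fell from 81.8, 91.8 and 97.2 to 43.1, 32.0 and 40.3 CPM (-1.23 ± 0.15, adjusted p = 0.00043). It shares 12061 bases with Aktip on the other strand, which carried a mean of 4894 counts against 3526 for Rbl2. Gadd45g, a growth arrest gene, rose by 1.47 ± 0.20. In LPS+Tβ4 against LPS 0 rose and 3 fell (10.3%), beside 4.5% of all genes higher and 2.33% lower. Lin9, which with Rbl1 and Rbl2 forms repressor complexes on cell cycle promoters, fell (-0.90 ± 0.21, adjusted p = 0.041). The others were Rbl1 (p107, -1.0 ± 0.17, adjusted p = 0.02) and Btg1, an antiproliferative gene (-1.04 ± 0.25, adjusted p = 0.047). All 3 were lost without LPS replicate 2 or LPS+Tβ4 replicate 1 or 2, and 1 remained without saline replicate 1, 2 or 3, LPS replicate 3 or LPS+Tβ4 replicate 3, while leaving out LPS replicate 1 gave 2 higher and 6 lower. None of the 3 passed with the 6 libraries compared or the replicate block, 1 did without a filter, and DESeq2 gave 2 higher and 6 lower. The 7 rises against saline became 4 without saline replicate 1, saline replicate 3 or LPS+Tβ4 replicate 2 and 3 without saline replicate 2 or LPS+Tβ4 replicate 1, and the 4 falls became 2 without saline replicate 3.

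Of 26 tested genes on a list of other p53 targets, 9 rose (34.6%) and 1 fell (3.85%) in LPS against saline, with a median of 0.57. All genes gave 20.9% and 22.2% in that comparison. The 1 that fell was Rrm2b, named here after its value was seen. Gdf15, a secreted stress cytokine, rose from 2.96, 0.851 and 0.943 CPM in saline to 58.6, 20.2 and 21.6 in LPS (4.41 ± 0.78, adjusted p = 0.0026). Apaf1, the core of the apoptosome, rose from 6.65, 7.70 and 7.97 to 16.3, 31.3 and 32.5 CPM (1.84 ± 0.28, adjusted p = 0.0012). Aen, an apoptosis-linked nuclease, rose by 1.39 ± 0.23. Relative to saline, 8 rose (30.8%) and 2 fell (7.69%) in LPS+Tβ4, beside 12.3% and 11.8% of all genes. The rises included Gadd45a (2.46 ± 0.36, adjusted p = 0.0025) and Bbc3, the apoptosis activator PUMA (1.61 ± 0.26, adjusted p = 0.0033). None of the 26 passed in edgeR in LPS+Tβ4 against LPS (0 higher and 3 lower at an unadjusted p under 0.05, beside 13.5% and 11.5% of all genes, and 0 and 3 in DESeq2), where Trp53inp1 gave -1.25 ± 0.32 (adjusted p = 0.053) and Gadd45a 0.46 ± 0.34 (adjusted p = 0.45). Without LPS replicate 3, 2 of the list fell in LPS, and without LPS replicate 1, 1 was higher and 2 lower in LPS+Tβ4 against LPS, where 1 was lower without LPS+Tβ4 replicate 3. The 8 became 5 without saline replicate 1 or LPS+Tβ4 replicate 1, and the 2 falls became 0 without any 1 of saline replicates 1, 2 and 3, LPS replicate 2 and LPS+Tβ4 replicates 1 and 2, and 1 without LPS+Tβ4 replicate 3.

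**Figure D4:**
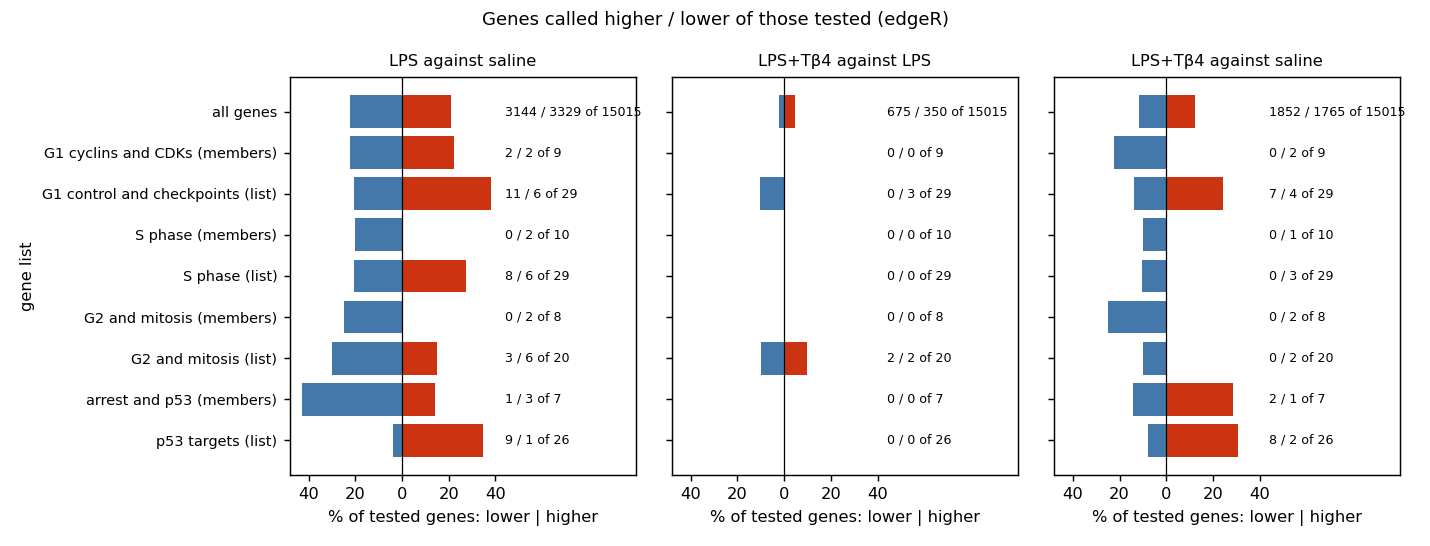
Share of tested genes called higher (red, to the right) and lower (blue, to the left) by edgeR in each comparison (panels), for all 15015 genes, the 4 classes of members and the 4 wider lists; the figures beside the bars are genes called higher / lower of those tested. Among p53 targets outside the members, 9 of 26 were higher and 1 lower in LPS, beside 20.9% and 22.2% of all genes. Of the 14 G2 and mitosis members 8 were tested, and 0 were higher and 2 lower (25.0%), near the share of all genes lower.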

How the data were processed

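Kidney mRNA was purified on oligo(dT) and its second strand marked with dUTP, per the labels' protocols. The deposited table holds a raw count and an FPKM value, both made by the authors, for 34310 genes in 9 libraries. The build is GRCm38 and the tools named are HISAT2 2.2.1, StringTie 2.1.6, cutadapt 1.9, edgeR and DESeq2, per the submitters' processing notes. How strand was used in counting is not given in the sources used here, so a gene and an antisense partner may share reads. No column of the table was left unmapped (0).

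Genes with a mean of at least 0.5 FPKM over the 9 libraries (15015) were tested in edgeR 4.0.16 under R 4.3.3. All 9 libraries entered 1 quasi-likelihood model after TMM scaling, with 3 group means as its terms, 2-sided tests, Benjamini-Hochberg adjustment over 15015 genes and a threshold of 0.05. The SE is the change divided by the square root of F. The edgeR fit alone was also run on simulated counts, in which far fewer genes were changed than LPS against saline called here. That run does not test the scaling under so broad a change, and no result rests on it. Alternatives were no filter, a mean of 2 FPKM, filterByExpr, median-of-ratios and total count scaling, DESeq2 1.42.0, limma 3.58.1 on log2(FPKM + 1), the 6 libraries compared, a replicate block, a term for urothelium transcripts, and each library left out in turn (the rest of the fit then carries the spread of a group left with 2).

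Members, wider lists and tests were chosen with earlier results of these data known. All members may be named. Values per library are given for the 5 members of each class with the smallest p in a comparison and some fixed ones, and from each wider list at most 3 genes with the smallest p per comparison. The values of some genes of the wider and marker lists are not reported here. Promoter text is from RefSeq, GRCm38.p6. Plots used Python 3.11.15 and matplotlib 3.10.9.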

Additional observations from a re-analysis of the deposited data

How the results depend on the processing

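Of 85 gene changes followed through the alternatives, 49 passed, and 25 of them kept their call under every alternative that could test them. Over genes and alternatives, 724 values kept a call and 608 passed in neither fit, while 186 lost a call, 60 gained one and 3 changed sign. The sign changes were Mki67 in LPS+Tβ4 against LPS without LPS replicate 1 (-0.023, in a range to 0.698 with 1 library less), and Mdm2 in LPS+Tβ4 against saline with the urothelium term (-0.066) and without LPS+Tβ4 replicate 1 (-0.037, in a range to 0.22), none of them past the threshold. The cause was not tested for any change below. Counts are members called, except where all genes or wider lists are named, and settings not listed stayed within 1.5 times the reported count.

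In LPS against saline, members higher (3 as reported) were 5 with total count scaling, DESeq2 and limma, members lower (9) were 4 at a mean of 2 FPKM, where fewer members are tested, and leaving out 1 library gave 3 to 5 higher and 4 to 10 lower. G1 genes higher (2) and lower (2) were 1 each at 2 FPKM, and 1 was lower without a filter; 1 library less gave 1 to 2 lower. S phase genes higher (0) were 2 at 2 FPKM and in DESeq2, and 1 with median-of-ratios or total count scaling, limma, the 6 libraries compared and the urothelium term; lower (2) became 0 at 2 FPKM, and 1 library less gave 0 to 1 higher and 1 to 2 lower. G2 and mitosis genes lower (2) were 0 at 2 FPKM, 4 in DESeq2 and 1 with the replicate block, and 1 to 3 with 1 library less. Arrest and p53 genes higher (1) were 2 with total count scaling and limma, and lower (3) became 1 without a filter, with total count scaling, the 6 libraries compared and the replicate block; 1 library less gave 1 to 2 higher and 0 to 3 lower.

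In LPS+Tβ4 against LPS, all genes called (1025) were 647 without a filter, 2442 in DESeq2, 3 with the 6 libraries compared, 5 with the replicate block and 68 to 2672 with 1 library less. Members higher (0) were 1 in DESeq2, of S phase, and lower (0) were 2, 1 of G1 and 1 of arrest and p53. With 1 library less, members were 0 to 1 higher, in arrest and p53, and 0 to 6 lower, with 0 to 2 each in G1, S phase, and arrest and p53.

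In LPS+Tβ4 against saline, all genes called (3617) were 2119 to 4544 with 1 library less. Members higher (2, both of arrest and p53) were 1 without a filter, with filterByExpr and with the replicate block, and 1 to 2 with 1 library less; a G1 gene was higher (1 against 0) with total count scaling and limma. Members lower (6) were 1 at 2 FPKM, 3 with total count scaling and limma, 1 with the replicate block and 0 to 9 with 1 library less. Of these, G1 genes (2) were 1 at 2 FPKM, with total count scaling and limma, 0 with the block, and 0 to 3 with 1 library less; S phase genes (1) were 0 at 2 FPKM, 2 with the 6 libraries compared and 0 to 2 with 1 library less; G2 and mitosis genes (2) were 0 at 2 FPKM and with the block, 1 with median-of-ratios or total count scaling and limma, 4 in DESeq2 and with the 6 libraries compared, and 0 to 4 with 1 library less; and the arrest gene (1) was 0 without a filter, at 2 FPKM, with total count scaling, limma, the block and the urothelium term, and 0 to 1 with 1 library less. On limma's FPKM scale, 65.0% of all calls in this comparison were higher, against 51.2% as reported.

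In the wider lists, LPS against saline gave 13 mitotic genes lower (6) with filterByExpr, 10 without a filter, 3 with the block and 1 at 2 FPKM, 4 S phase genes higher (8) at 2 FPKM and 5 with the block, 3 lower (6) at 2 FPKM, and 2 p53 targets lower (1) with the urothelium term. In LPS+Tβ4 against LPS, G1 genes lower (3) were also 1 with total count scaling and the urothelium term, and mitotic genes (2 higher, 2 lower) were 1 and 0 at 2 FPKM, 1 and 2 with filterByExpr or median-of-ratios scaling, 2 and 1 with total count scaling or limma, and 1 and 1 with the urothelium term. There S phase genes (0) were 1 higher with filterByExpr, 1 lower at 2 FPKM and in limma and 2 lower with the urothelium term, and 1 p53 target was lower (0) at 2 FPKM. In LPS+Tβ4 against saline, G1 genes higher (7) were 3 with the block and lower (4) were 2 at 2 FPKM and with total count scaling and 1 in limma; mitotic genes lower (2) were 6 with filterByExpr, 5 with the urothelium term, 4 in DESeq2, and 0 at 2 FPKM, in limma and with the block; S phase genes lower (3) were 6 in DESeq2 and with the 6 libraries compared, and 1 with total count scaling, limma and the block; p53 targets lower (2) were 4 in DESeq2 and 0 without a filter, with total count scaling, limma and the block.

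Replicate numbers did not serve as pairs, since the deviations of same-numbered libraries from their group means correlated at -0.66 to 0.32. Each change sets 3 libraries against 3, with the spread taken from all 9, and the mitotic members are limited by depth: the lowest level, that of Ccnb2 in LPS replicate 1, came from 10 counts.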
